A study of Homo sapiens with 9 samples.

Results

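The genes described here encode microtubule-associated proteins and tubulin-binding stathmins, and were chosen as the entries of the deposited expression table whose symbol equals MAP2, MAPT, MAP1A, MAP1B, MAP1S, MAP4, MAP6, STMN1, STMN3 or DCLK1. All 10 were found among 19932 gene symbols in 22295 entries. The samples were 9 RNA-seq libraries of U251, an established human glioblastoma cell line, with 3 libraries in each of 3 groups. The sh-Luci-3d group carried a control sh-RNA against luciferase and was taken 3 days post infection (dpi). The sh-Ptbp1-3d and sh-Ptbp1-7d groups carried an sh-RNA against PTBP1, an RNA-binding protein that represses neuronal exons, and were taken at 3 and 7 dpi. All groups were infected with lentivirus, per the study's methods with an M-cherry marker, and were moved at 2 dpi to a neuronal induction medium. A sh-Luci library of 7 dpi was not analysed here, so the knockdown and the additional days in that medium cannot be told apart in a comparison with sh-Ptbp1-7d. Every group is 1 cell line, and the labels do not say whether the 3 libraries of a group came from separate cultures, so p-values measure only the spread between these libraries.

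Microtubules are polymers of tubulin that carry cargo, shape the cell and build the mitotic spindle, and the proteins bound to them set how stable they are. Structural microtubule-associated proteins lie along the polymer and stabilise or bundle it: MAP2 is classically found in the cell body and dendrites of neurons, tau (the product of MAPT) in axons, and MAP1B in growing axons, while MAP4 is the main member in dividing cells outside the nervous system. Stathmins act the other way, since they bind free tubulin and promote disassembly. DCLK1 joins a doublecortin-type microtubule-binding region to a kinase. MAP2 and MAPT serve as markers of neurons, which is why they are read in studies that drive other cells towards a neuronal state.

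Between 3 and 7 dpi under the PTBP1 sh-RNA, the members moved in opposite directions. MAP2 and STMN3 were higher at 7 dpi, and MAPT was higher in all 3 libraries of 7 dpi than in every library but 1 of 3 dpi. DCLK1, MAP1B, STMN1 and MAP4 were lower, DCLK1 by the largest fold. At 3 dpi no member was called different from sh-Luci-3d, in a comparison that called 5 of all 15551 genes tested.

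Promoter letters are printed for STMN3, which rose, and DCLK1, which fell furthest on the log2 scale, since these windows overlap no exon of the GENCODE annotation. Of the 10 members, 8 have an entry in the RefSeq promoter table (GRCh38.p14), and each window is the 250 bases before a start site, written 5′ to 3′ on the gene's strand. Both lie on the minus strand, STMN3 at chr20:63652767-63653016 and DCLK1 at chr13:36131383-36131632. The RefSeq start of STMN3 is 4916 bases inside the outermost GENCODE start, and that of DCLK1 is 76 bases before it. Capitals mark the GC box GGGCGG, a letter pattern bound by SP1-type factors.
STMN3: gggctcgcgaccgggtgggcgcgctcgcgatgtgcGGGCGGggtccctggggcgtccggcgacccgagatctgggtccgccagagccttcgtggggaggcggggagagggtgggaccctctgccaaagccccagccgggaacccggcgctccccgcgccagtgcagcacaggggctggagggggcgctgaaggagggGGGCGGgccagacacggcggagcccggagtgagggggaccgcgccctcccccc
DCLK1: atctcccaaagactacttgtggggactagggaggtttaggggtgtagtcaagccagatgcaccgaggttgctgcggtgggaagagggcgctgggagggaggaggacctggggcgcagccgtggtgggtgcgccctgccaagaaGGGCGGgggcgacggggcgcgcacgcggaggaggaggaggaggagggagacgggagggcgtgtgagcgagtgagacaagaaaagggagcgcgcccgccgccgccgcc
The STMN3 window holds 2 GC boxes at a GC content of 78.0%, and the DCLK1 window holds 1 at 68.8%, beside a median of 58.0% over 35116 promoters of the same length. Searched on both strands, GGGCGG was in 6 of the 8 members' windows and in 42.6% of all promoters. TATAAA, the TATA box, was found in MAP1B alone (10.7% of all promoters), and GCGGGAA, an E2F-type pattern, in STMN1 alone (5.52%). TTCAGCACC, the left arm of the element bound by the neuronal repressor REST, was in 0 of the 8 windows (0.288% of all promoters). TGACGTCA, the cAMP response element, was in 0 of 8 (1.65%), as was TGACG, which lies within it (21.2%). Of the MAP4, MAP1B, MAP1S, STMN1, MAP1A and MAP2 windows, 250, 241, 238, 111, 25 and 17 bases lie in a GENCODE exon. The RefSeq start used for MAP2 is 155274 bases from its outermost GENCODE start. A letter match describes the window and is not a measured site.

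The targeted gene was read first. Mean PTBP1 went from 115.7 ± 7.58 FPKM (SD, n = 3) under sh-Luci-3d to 63.9 ± 2.67 under sh-Ptbp1-3d and 50.5 ± 0.645 under sh-Ptbp1-7d. FPKM are fragments counted per kilobase of transcript and scaled by library size, as deposited, so they may be compared between genes. PTBP2, the neuronal paralog that PTBP1 holds down, stood at 6.54 ± 1.68, 17.8 ± 1.34 and 27.1 ± 1.58 FPKM in the same order. The depth behind the values is unknown. In genes of its own, sh-Ptbp1-3d replicate 3 stands apart. It has 47 gene symbols at 1 FPKM or more and over 4 times every other 3 dpi library, where the other 5 have 1 to 6. MAPT is the 1 member among those 47. Results on the members that rest on this library are given with and without it.

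Levels spanned a wide range in every group. STMN1 was highest, with a sh-Luci-3d mean of 222.2 ± 20.8 FPKM (SD, n = 3), followed by MAP1B and MAP4, whose libraries overlapped there. MAP2, MAP1S and DCLK1 came next with overlapping neighbours, then STMN3, MAP1A, MAPT and MAP6, each below all libraries of the one before. In sh-Ptbp1-3d the neighbours that overlapped were MAPT and MAP1A. In sh-Ptbp1-7d the order was STMN1, MAP4, MAP2, MAP1B, MAP1S, STMN3, MAPT, DCLK1, MAP1A and MAP6, and MAP1B and MAP1S overlapped. MAP2 passed from the fourth place in both 3 dpi groups to the third, and DCLK1 from the sixth to the eighth.

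MAP2 rose between 3 and 7 dpi from a level already substantial in the control. The gene lies on chromosome 2 from 209424058 to 209734118, plus strand (GRCh38, GENCODE v29, as are all gene positions here). Its values were 26.6, 22.8 and 17.7 FPKM in the sh-Luci-3d libraries, 18.9, 18.1 and 24.1 FPKM in those of sh-Ptbp1-3d and 41.4, 41.2 and 34.0 FPKM in those of sh-Ptbp1-7d. The 3 dpi groups overlap, and all 3 libraries of 7 dpi lie above both. The mean of 38.9 ± 4.22 FPKM at 7 dpi was 1.91 times that of sh-Ptbp1-3d, a log2 fold change (log2FC) of 0.94 on the log2(FPKM + 0.1) scale (standard error, SE, 0.157; limma adjusted p = 0.000580). Against sh-Luci-3d the log2 fold change was 0.81 (limma adjusted p = 0.00150). Without sh-Ptbp1-3d replicate 3, which held 1.30 times the mean of the other libraries of its group, the difference between 7 and 3 dpi was 1.06 (limma adjusted p = 0.000639). Over the alternatives the adjusted p of the difference between 7 and 3 dpi ran from 0.000139 to 0.00361.

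MAPT, which encodes tau, lies on chromosome 17 from 45894382 to 46028334, plus strand. The sh-Luci-3d libraries had 0.356, 0.422 and 0.373 FPKM, close together and low. Replicates 1 and 2 of sh-Ptbp1-3d had 0.387 and 0.391 FPKM, whereas replicate 3 had 2.89 FPKM, 7.42 times their mean. The sh-Ptbp1-7d libraries had 3.74, 3.61 and 2.51 FPKM, so replicate 3 of 3 dpi falls inside the range of 7 dpi. With all libraries the log2 fold change between 7 and 3 dpi was 1.90, with a 95% confidence interval of 0.65 to 3.15, and did not pass the threshold of 0.01 (limma adjusted p = 0.0168). Without replicate 3 it was 2.77 (SE 0.224; limma adjusted p = 1.31e-05, the lowest in a range over the alternatives that reached 0.0683). Against sh-Luci-3d, MAPT rose at 7 dpi with a log2FC of 2.79 (SE 0.566; limma adjusted p = 0.00198), to 8.56 times the control mean. MAPT-AS1 overlaps it on the opposite strand, and reads of the pair cannot be told apart where the counting did not use strand, which the sources used here do not give. MAP2 remained the more abundant of the pair, at 58.7 ± 14.2 times MAPT in sh-Luci-3d and 12.0 ± 1.34 times at 7 dpi (FPKM ratio per library, SD, n = 3). In sh-Ptbp1-3d the ratio was 48.8 and 46.2 in replicates 1 and 2, and 8.34 in replicate 3, below each library of 7 dpi.

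The MAP1 family did not move as one. MAP1B, the family member of growing axons, lies on chromosome 5 from 72107234 to 72209570, plus strand. It had 80.7, 78.4 and 58.3 FPKM in the sh-Luci-3d libraries, 64.7, 61.8 and 62.7 FPKM in those of sh-Ptbp1-3d and 24.6, 23.2 and 16.6 FPKM in those of sh-Ptbp1-7d. The 3 lowest values are those of 7 dpi, and the highest of them is less than the lowest value at 3 dpi. MAP1B fell to 34.0% of the sh-Ptbp1-3d mean, a log2FC of -1.57 (SE 0.155; limma adjusted p = 1.34e-05). An assembled locus without a gene symbol lies near it on the opposite strand, on chromosome 5 from 72097583 to 72099128, at 0.248 to 0.566 FPKM, and does not overlap it.

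MAP1A, which takes over from MAP1B in mature neurons, lies on chromosome 15 from 43510958 to 43531620, plus strand. Its libraries had 1.11, 1.05 and 1.01 FPKM in the sh-Luci-3d libraries, 1.09, 1.05 and 0.960 FPKM in those of sh-Ptbp1-3d and 0.832, 0.863 and 0.737 FPKM in those of sh-Ptbp1-7d. The 7 dpi values are the 3 lowest, but the log2 fold change of -0.32 against sh-Ptbp1-3d (95% confidence interval -0.67 to 0.03) did not pass (limma adjusted p = 0.120). MAP1S, the short and widely expressed member of the family, lies on chromosome 19 from 17719242 to 17734516, plus strand, overlapped on the opposite strand by AC008761.1. It had 13.8, 15.1 and 18.7 FPKM in the sh-Luci-3d libraries, 15.6, 15.3 and 16.0 FPKM in those of sh-Ptbp1-3d and 18.5, 20.0 and 19.9 FPKM in those of sh-Ptbp1-7d. The 7 dpi libraries lie above those of sh-Ptbp1-3d and overlap sh-Luci-3d at 1 library. Its log2 fold change of 0.32 between 7 and 3 dpi (95% confidence interval 0.08 to 0.55) did not pass the threshold of 0.01 (limma adjusted p = 0.0305), and passed it with TPM, with these groups alone, or without sh-Luci-3d replicate 3 (limma adjusted p = 0.00603, 0.00308 and 0.00214, in a range over the alternatives up to 0.136).

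MAP4, the ubiquitous structural member, lies on chromosome 3 from 47850690 to 48089272, minus strand. It had 70.6, 76.7 and 64.1 FPKM in the sh-Luci-3d libraries, 79.9, 70.5 and 69.2 FPKM in those of sh-Ptbp1-3d and 47.3, 45.7 and 42.2 FPKM in those of sh-Ptbp1-7d. All libraries of 7 dpi lie below all of 3 dpi, and the sh-Luci-3d and sh-Ptbp1-3d libraries overlap. The log2 fold change between 7 and 3 dpi was -0.70 (SE 0.0912; limma adjusted p = 0.000104), a fall to 61.5%. As MAP4 fell and MAP2 rose, the FPKM ratio of MAP2 to MAP4 was 0.317 ± 0.0532 in sh-Luci-3d, 0.280 ± 0.0594 in sh-Ptbp1-3d and 0.861 ± 0.0489 in sh-Ptbp1-7d (SD, n = 3). The ratio of MAP2 to MAP1B was 0.308 ± 0.0198, 0.323 ± 0.0528 and 1.84 ± 0.189 in the same order, so MAP2 exceeded MAP1B at 7 dpi and not in the 3 dpi groups.

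The 2 stathmins went opposite ways. STMN1, the stathmin of proliferating cells, also called oncoprotein 18, lies on chromosome 1 from 25884181 to 25906991, minus strand. Its libraries had 240.7, 226.1 and 199.7 FPKM in the sh-Luci-3d libraries, 208.5, 244.0 and 221.1 FPKM in those of sh-Ptbp1-3d and 104.6, 122.3 and 130.3 FPKM in those of sh-Ptbp1-7d. The libraries of 7 dpi all lie under 150 FPKM and those of 3 dpi all above it. STMN1 fell by 0.92 on the log2 scale (SE 0.106; limma adjusted p = 4.21e-05), to 53.0% of the sh-Ptbp1-3d mean. GENCODE names 2 pseudogenes after it, STMN1P1 and STMN1P2, and how the counting shared reads with them is not given in the sources used here.

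STMN3, a stathmin of neurons anchored to Golgi and vesicle membranes, lies on chromosome 20 from 63639705 to 63657682, minus strand; its promoter letters are printed above. It had 7.45, 6.40 and 8.53 FPKM in the sh-Luci-3d libraries, 8.45, 7.94 and 8.36 FPKM in those of sh-Ptbp1-3d and 16.9, 16.3 and 15.2 FPKM in those of sh-Ptbp1-7d. The 3 dpi groups overlap, and every library of 7 dpi lies above them. The rise was 0.96 on the log2 scale against sh-Ptbp1-3d (SE 0.109; limma adjusted p = 3.82e-05) and 1.11 against sh-Luci-3d (SE 0.109; limma adjusted p = 1.29e-05). The FPKM ratio of STMN3 to STMN1 was 0.0340 ± 0.00768 in sh-Luci-3d, 0.0370 ± 0.00407 in sh-Ptbp1-3d and 0.137 ± 0.0230 in sh-Ptbp1-7d (SD, n = 3), with STMN1 the more abundant in all 9 libraries.

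DCLK1, the doublecortin-like kinase, lies on chromosome 13 from 35768652 to 36131306, minus strand, and had the largest absolute log2FC of the 9 tested members between 7 and 3 dpi with all libraries. It had 14.3, 12.4 and 10.9 FPKM in the sh-Luci-3d libraries, 12.4, 13.2 and 11.1 FPKM in those of sh-Ptbp1-3d and 2.01, 2.02 and 1.34 FPKM in those of sh-Ptbp1-7d. The 3 dpi groups overlap, and the 7 dpi libraries are all lower by a wide gap. DCLK1 fell to 14.6% of the sh-Ptbp1-3d mean, a log2FC of -2.73 (SE 0.162; limma adjusted p = 3.49e-07). Its paralog DCLK2 went the other way, with 3.73, 3.77 and 3.35 FPKM in the sh-Luci-3d libraries, 5.20, 4.98 and 4.79 FPKM in those of sh-Ptbp1-3d and 14.3, 13.5 and 13.8 FPKM in those of sh-Ptbp1-7d. The DCLK2 groups do not overlap each other, and its log2 fold change between 7 and 3 dpi was 1.46 (SE 0.0927; limma adjusted p = 5.37e-07). At 7 dpi DCLK2 was the more abundant of these paralogs per length, where DCLK1 had been so in both 3 dpi groups.

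MAP6, the cold-stable microtubule protein of neurons, lies on chromosome 11 from 75586918 to 75669120, minus strand. It was listed at 0 in 7 libraries, at 0.211 FPKM in sh-Ptbp1-3d replicate 3 and at 0.050 FPKM in sh-Ptbp1-7d replicate 3. It did not reach the mean of 0.1 FPKM required for a test, so 9 of the 10 members were tested.

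Over the 9 tested members, the comparison of sh-Ptbp1-7d with sh-Ptbp1-3d called 6 at an FDR below 0.01, where 35.8% of the 15551 genes tested were called. MAP2 and STMN3 were the 2 called higher (20.3% of all genes), and MAP1B, MAP4, STMN1 and DCLK1 the 4 called lower (15.5%). With a fold above 2 required as well, 2 were called, MAP1B and DCLK1, against 14.2% of all genes. Without sh-Ptbp1-3d replicate 3, MAPT and MAP2 joined these for a count of 4, and without sh-Ptbp1-7d replicate 3, MAP2 and STMN3 did so for a count of 4. Of all genes, these fits so called 2111 of 15511 and 2085 of 15519. The groups did not overlap for 8 of 9 members, MAPT excepted, beside 62.3% of all genes. The members' median log2 fold change was -0.32, that of all genes 0.09.

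The comparison of sh-Ptbp1-7d with sh-Luci-3d shares its 7 dpi libraries with the former one and called 7 members, beside 35.6% of all genes. Higher were MAP2, MAPT and STMN3 (3 members, 20.6% of all genes), and lower were MAP1B, MAP4, STMN1 and DCLK1 (4 members, 15%), with log2 fold changes of -1.76, -0.64, -0.90 and -2.76. MAPT, STMN3, MAP1B and DCLK1, 4 members, also had a fold above 2 (14.6% of all genes). MAP1S at 0.30 (limma adjusted p = 0.0366) and MAP1A at -0.35 (limma adjusted p = 0.0941) did not pass. The groups did not overlap for 8 of 9 members, MAP1S excepted, beside 55.9% of all genes.

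The comparison of sh-Ptbp1-3d with sh-Luci-3d asks what the knockdown did by 3 dpi, and called 0 of 9 members at an FDR below 0.05 in limma, where 0.0322% of all genes, 5 in number, were called, PTBP1 and PTBP2 among them. The members' count with an unadjusted p under 0.05 was also 0, beside 1126 of the 15551 genes tested. The members' limma adjusted p-values ran from 0.780 to 0.988. The count of genes called depended on 1 control library. Without sh-Luci-3d replicate 3 it was 993 of 15582, 59 with a fold above 2. Leaving out any other single library gave 1 to 5. No member was called between the 3 dpi groups under any alternative. The groups overlapped for every tested member, so 0 did not, beside 10.8% of all genes. The 95% confidence intervals of the log2 fold change were -0.48 to 0.22 for MAP2, -0.53 to 0.16 for MAP1B, -0.15 to 0.26 for MAP4, -0.22 to 0.25 for STMN1, -0.09 to 0.39 for STMN3 and -0.39 to 0.33 for DCLK1. MAPT had the widest, -0.36 to 2.14 around 0.89, and without sh-Ptbp1-3d replicate 3 it was -0.49 to 0.52 around 0.018.

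**Figure D1:**
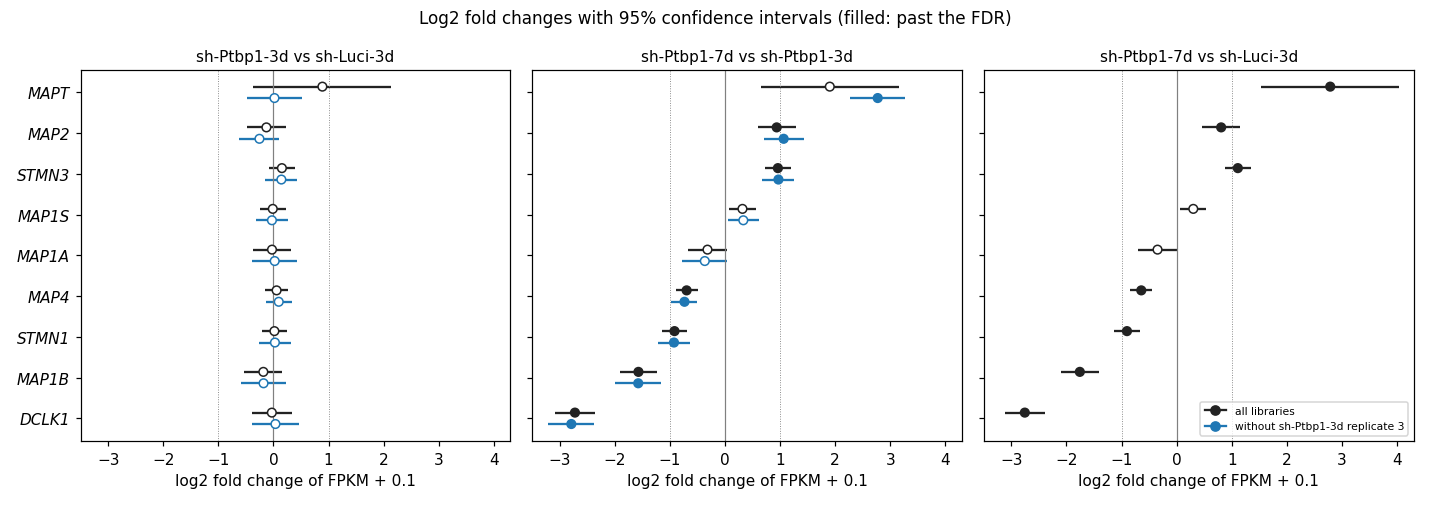
Log2 fold change on the log2(FPKM + 0.1) scale (x axis) of the 9 tested genes in the 3 comparisons, with 95% confidence intervals; black is the fit of all 9 libraries, blue that without sh-Ptbp1-3d replicate 3, filled points pass the FDR and dotted lines mark a fold of 2. MAPT between 7 and 3 dpi passes in blue (2.77) and not in black (1.90), and no point is filled at 3 dpi.

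Summed over the 10 genes, FPKM were 455.7, 439.4 and 379.3 in the sh-Luci-3d libraries, 409.9, 432.3 and 416.6 in sh-Ptbp1-3d and 259.9, 275.2 and 262.8 in sh-Ptbp1-7d. The sum at 7 dpi was 63.4% ± 1.93 (SD, n = 3) of the sh-Ptbp1-3d mean and 62.6% ± 1.91 of the sh-Luci-3d mean, each with an exact two-sided permutation p = 0.1, the smallest that 3 against 3 libraries allow. The sum in sh-Ptbp1-3d was 98.8% ± 2.71 of that in sh-Luci-3d (exact two-sided permutation p = 0.9). STMN1 alone made up 52.3% of the sum in sh-Luci-3d, 53.5% in sh-Ptbp1-3d and 44.8% in sh-Ptbp1-7d on average. The mean share of MAP2 was 5.23%, 4.85% and 14.6% in that order, and that of MAP1B 17.0%, 15.0% and 8.06%. In such bulk libraries, fewer cells of a kind and less RNA per cell cannot be told apart.

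**Figure D2:**
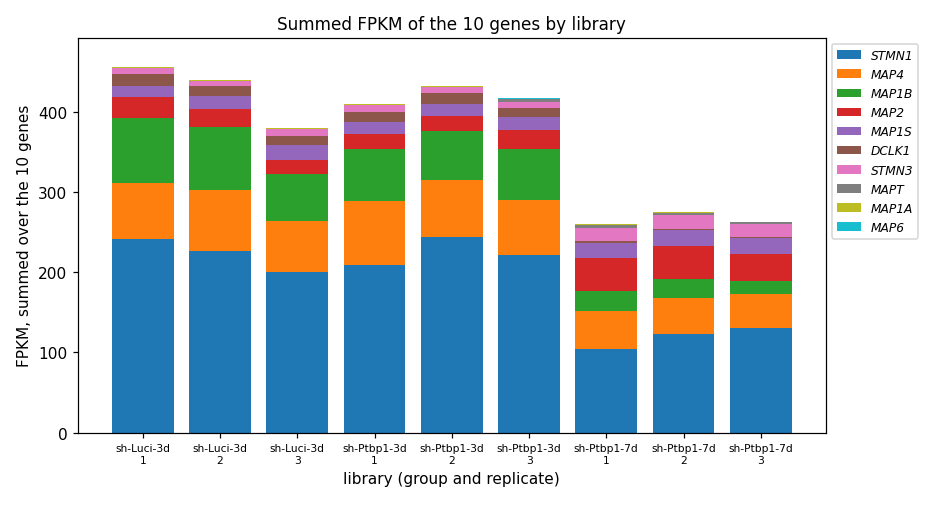
FPKM summed over the 10 genes (y axis, linear from 0) in each of the 9 libraries, split by gene. The 7 dpi bars reach 259.9 to 275.2 FPKM, below the 379.3 to 455.7 FPKM of the 3 dpi bars, with a thicker band for MAP2 and thinner bands for MAP1B and STMN1.

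Several neuronal genes, and FABP7 and GFAP among the astroglial and glioma markers, stood out in sh-Ptbp1-3d replicate 3. STMN2, the stathmin of growing axons, was listed at 0 in 8 libraries and at 11.5 FPKM in that library. DCX, the doublecortin of migrating young neurons, stood at 2.14 FPKM there and at 0 to 0.0346 FPKM in the other 8. Of 15 neuron markers, 9 were at 1 FPKM or more in this library and 6 in each of the other 8, while 0 were listed at 0 in it and 1 to 4 in the others. The sum of these markers was 584.6 to 591.9 FPKM over its group. GAP43, a growth cone protein, had 3.88 FPKM in it and 0.0882 to 0.987 FPKM elsewhere. Among the 15 markers, SNAP25, SYP, NCAM1, SYN1, RBFOX3, ELAVL3, ELAVL4 and INA were also higher in it than in replicates 1 and 2. TUBB3, NEFL, SYT1, ENO2 and NEFM were not, at 0.987, 0.968, 0.935, 1.03 and 1.11 times the mean of replicates 1 and 2. NEFH, near 0, was at 1.02 times that mean in this library. FABP7, a fatty acid binding protein of radial glia, was at 15.0 FPKM there and at 1.98 and 1.52 FPKM in replicates 1 and 2. GFAP, the astrocyte filament, was at 1.15 FPKM there and at 0.111 and 0.497 FPKM in those replicates, while sh-Ptbp1-7d replicate 3 had 1.14 FPKM. The other astroglial and glioma markers mostly did not rise in sh-Ptbp1-3d replicate 3. SLC1A3 was at 1.38 times the mean of replicates 1 and 2. VIM, NES, SOX2, SOX9 and CD44 were at 0.942, 0.892, 0.964, 0.984 and 0.894 times that mean. S100B was at 0.514 times, and AQP4 was listed at 0. MAP1B, STMN1, STMN3 and MAP1S in sh-Ptbp1-3d replicate 3 stood at 0.992, 0.977, 1.02 and 1.03 times the mean of replicates 1 and 2. DCLK1, MAP1A, MAP4 and MAP2 stood at 0.871, 0.895, 0.920 and 1.30 times that mean. The part of these neuronal and glial markers in the MAPT value was not tested.

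The wider microtubule machinery is described by its counts between 7 and 3 dpi, with no test of a list, beside the 35.8% of all genes called, or 28.8% in the fit without sh-Ptbp1-3d replicate 3. Of 18 tested genes among other structural proteins, doublecortins and stathmins, 3 were called higher and 1 lower, and without that library the count was 1 of 15, DCLK2. The other 3 were MAP1LC3A and MAP7, higher by 0.61 and 0.59, and MAP1LC3B, lower at -0.35 on the log2 scale. Without that library MAP1LC3A, MAP7 and MAP1LC3B were at 0.67, 0.45 and -0.39, with limma adjusted p of 0.0137, 0.0289 and 0.0164. Of 13 genes of proteins at microtubule ends, 2 were called, CLIP2 at 0.70 and MAPRE3 at 0.47, and without that library the count was 1 of 12, MAPRE3, with CLIP2 at 0.72 (limma adjusted p = 0.0124). Of 7 severing enzymes, KATNAL1 was the 1 called, lower at 7 dpi (limma adjusted p = 0.000183). Of 16 enzymes that modify tubulin or these proteins, TTLL1 rose by 0.70, and TTL and TTLL7 fell by 0.67 and 0.72. Without that library 4 of 16 were called, VASH2, a tubulin tyrosine-removing enzyme, being at 1.44 with it (limma adjusted p = 0.0320) and at 2.04 without it (limma adjusted p = 0.00246).

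Kinases that phosphorylate tau, MAP2 and doublecortin-type proteins, in a list that also holds CDK5R1 and CDK5R2, had 6 of 15 tested genes called. Of these, 4 were higher and 2 lower. Of all genes, 35.8% were called in the same comparison, 20.3% higher and 15.5% lower. MAPK10, the neuronal JNK, rose from 1.74 ± 0.252 FPKM to 4.73 ± 0.39 FPKM (SD, n = 3), a log2FC of 1.40 (limma adjusted p = 2.03e-05). BRSK1, a kinase of neuronal polarity, rose by 1.36, and MARK1, which phosphorylates tau, by 1.01. On the same log2 scale GSK3A rose by 0.42, and CDK5 and MAPK9 fell by 0.64 and 0.54. At 3 dpi, limma called 0 of the 69 tested genes of these 5 lists, beside 0.0322% of all genes. An unadjusted p under 0.05 was found for 4, DCLK2, EML1, MAP1LC3A and TTLL1, beside 1126 of all 15551 genes tested.

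Marker genes were read for the identity of the cells. Between 7 and 3 dpi, 35.8% of all genes were called, 20.3% higher and 15.5% lower. Without sh-Ptbp1-3d replicate 3 the share called was 28.8%. All 10 proliferation markers were called lower at 7 dpi than in sh-Ptbp1-3d, with a median log2 fold change of -1.32: PLK1 at -1.82, CCNB1 at -1.49 and AURKA at -1.43, all mitotic regulators, and MKI67 at -1.15. STMN1 and MAP4 fell in the same libraries, and the part of cell division in their values was not tested. Of 12 tested neuron markers, 0 were called higher and 5 lower, among them TUBB3 (tubulin of neurons, -1.42), GAP43 (-2.34, or -1.61 without sh-Ptbp1-3d replicate 3) and NEFM (a neurofilament, -1.53). Without that library, 1 was called higher and 5 lower of 9. The 1 was SNAP25, a synaptic vesicle fusion protein, with a mean of 1.27 FPKM in sh-Luci-3d, 2.68 after 3 days of knockdown and 4.32 after 7. Its log2FC at 7 dpi was 0.72 over sh-Ptbp1-3d with all libraries (limma adjusted p = 0.0177) and 1.01 without replicate 3 (limma adjusted p = 0.000719), and 1.69 over sh-Luci-3d (limma adjusted p = 9.16e-05). The markers summed to 247.5 to 258.1 FPKM at 7 dpi, where MAP2, MAPT and STMN3 were high, against 502.7 to 591.9 FPKM at 3 dpi. Most of that sum was TUBB3, at 118.2 ± 7.98 FPKM (SD, n = 3), and NEFL, another neurofilament, at 92.7 ± 6.17 FPKM at 7 dpi, against 316.9 ± 4.57 and 216.2 ± 4.05 FPKM in sh-Ptbp1-3d.

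Astroglial and glioma markers had 2 genes called higher and 2 lower of 9, beside 20.3% and 15.5% of all genes. These were S100B at 2.08 and SLC1A3, an astrocyte glutamate transporter, at 1.89, and VIM at -1.91 and CD44 at -1.41. VIM, the intermediate filament of these cells, had 4088 to 4488 FPKM at 3 dpi and 1094 to 1249 FPKM at 7 dpi. Oligodendrocyte markers summed to at most 0.285 FPKM in any library, and AIF1 and CD3E, of microglia and T cells, were listed at 0 in all 9. Of 7 microglia and blood markers 2 were tested, and 1 was called, beside 35.8% of all genes. It was CD68, a lysosomal protein abundant in macrophages, with 9.55 to 10.9 FPKM at 3 dpi and 15.5 to 17.8 FPKM at 7 dpi. Its log2FC was 0.63 (limma adjusted p = 0.000204). CSF1R, the other one tested, went the other way near 0, from 0.0772 to 0.197 FPKM at 3 dpi to 0.0356 to 0.0609 FPKM at 7 dpi. Its log2FC of -0.92 over sh-Ptbp1-3d did not pass (limma adjusted p = 0.0333). PTPRC was at most 0.0903 FPKM in any library.

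The patterns most like those of MAP2 and MAPT were sought among 11339 gene symbols with a mean of at least 1 FPKM, by Pearson correlation of log2(FPKM + 0.1) over the 9 libraries, which share the group differences, and are given as descriptions. For MAP2 they were BICRAL (r = 0.984), ZNF557 (0.981) and LSM14A (0.980). For MAPT they were FEZ1 (0.973), RNF122 (0.964) and ZNF250 (0.959). Like MAPT, these were higher in sh-Ptbp1-3d replicate 3 than in replicates 1 and 2, which the choice by correlation with MAPT favours. FEZ1, a protein of axon outgrowth, had 2.25, 1.74 and 4.25 FPKM in sh-Ptbp1-3d and 5.43, 4.40 and 5.17 FPKM in sh-Ptbp1-7d. Between MAP2 and MAPT the correlation was 0.830, and between MAP1B and DCLK1, which both fell, 0.988.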

How the data were processed

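The data were 9 RNA-seq libraries of total RNA from U251 cells (TRIzol, Illumina HiSeq). The authors filtered and mapped the reads and deposited FPKM per gene and library. The submitters' processing notes name HISAT2 and GRCh38. The counting program and its strand setting are not given in the sources used here. The values have no whole-read steps, so the depth is unknown and no counting interval is given. The deposited table of exon positions served only to place assembled loci.

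Samples were grouped by their titles. From the FPKM, log2(FPKM + 0.1) was fitted, for the 15551 genes averaging 0.1 FPKM or more, with limma 3.58.1 (R 4.3.3), all 9 libraries and 3 groups in one model with an intensity trend, and adjusted by Benjamini-Hochberg. Calls took an FDR below 0.05 between the 3 dpi groups and below 0.01 for 7 dpi, with and without a fold above 2. A fold on this scale understates the change of low genes. The model was tested on simulated data. Members, lists and tests were chosen with earlier results of these data known. Named from each list were up to 3 genes with the largest change past both thresholds, besides STMN2, DCX, TUBB3, MKI67, PTBP1 and PTBP2, and, chosen after their values were seen, other genes of the lists. Alternatives covered pseudocounts, filters, scalings, smaller fits, no trend, a replicate block and leaving out each library. Figures used matplotlib 3.10.9.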

Additional observations from a re-analysis of the deposited data

How the results depend on the processing

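Of the members' log2 fold changes under the alternatives, 516 kept their direction and side of the threshold, 8 came to pass it, 0 ceased to, and 13 turned in direction, all between the 3 dpi groups, where no member was called. STMN1 there was 0.016 as reported, -0.0050 with TPM and -0.023 with quantile normalization. Leaving out single libraries gave -0.058 to 0.076 for STMN1, -0.29 to 0.0059 for MAP2, -0.065 to 0.022 for MAP1A, -0.13 to 0.069 for DCLK1, -0.11 to 0.11 for MAP1S and -0.0099 to 0.12 for MAP4. Members called between 7 and 3 dpi with a fold above 2 were 2 as reported, 4 with TPM (MAP2 and STMN3 added), and 2 to 4 on leaving out single libraries. Of all genes, 2211 of 15551 were so called as reported and 2408 of 16742 with TPM. Leaving out single libraries gave 2012 to 2230, of 15504 to 15582 genes tested. With TPM the summed level at 7 dpi was 68.0% of sh-Ptbp1-3d and 66.1% of sh-Luci-3d. The median of all genes between 7 and 3 dpi was 0.09 with FPKM, 0.19 with TPM and -0.01 with quantile normalization. MAP1A passed the threshold at 7 dpi with quantile normalization alone. Deviations of same-numbered libraries correlated at -0.0317 to 0.0512, so the numbers were not taken as pairs, and a replicate block gave 0, 6 and 7 members called, with 0, 2 and 4 of a fold above 2, as without it. Of all 15551 genes the block called 0, 5322 and 5390, with 0, 2140 and 2217 of a fold above 2. The depth is unknown, and MAP6 was listed at 0 in 7 libraries.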
